A study of Mus musculus with 36 samples.

Results

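The levels of 5 genes of zinc handling were followed in C2C12 myotubes: the metallothioneins *Mt1* and *Mt2*, the zinc-sensing transcription factor *Mtf1*, the zinc exporter *Slc30a1* and the zinc importer *Slc39a10*. They were taken by gene symbol from the 55416 genes of the count table, with each symbol matching 1 row and no threshold set on their values. C2C12 is a mouse myoblast line that fuses into multinucleate, contracting myotubes when serum is lowered. All cells received an antisense locked nucleic acid (LNA) on day 3 of differentiation, either a negative control (control myotubes) or one against the long non-coding RNA *Tug1* (*Tug1* KD), and were studied 24 h later on day 4. Rest myotubes had electrodes in the medium without current, EPS 0h myotubes were harvested directly after 3 h of electrical pulse stimulation (EPS), and EPS 3h myotubes after a further 3 h of recovery. Each of the 6 groups held 6 libraries (36 in all). The cells are 1 clonal line from 1 vendor, there was no untransfected group, and the same Rest libraries serve as the reference for both times, so stimulation and the later harvest cannot be told apart at EPS 3h.

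Metallothioneins are small cysteine-rich proteins that bind zinc, copper and cadmium and buffer the free zinc of the cytosol. When zinc rises, MTF1, a zinc-finger factor, enters the nucleus and binds metal response elements in the promoters of *Mt1*, *Mt2* and *Slc30a1*, so that more zinc is stored and exported. SLC30 proteins (ZnT) move zinc out of the cytosol, across the plasma membrane in the case of ZnT1 (*Slc30a1*), and SLC39 proteins (ZIP) move it in, as ZIP10 (*Slc39a10*) does at the plasma membrane. Metallothionein genes are also known to be induced by glucocorticoids and oxidative stress, and are often used as a readout of intracellular zinc in muscle.

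All coordinates are on GRCm39. *Mt2* (ENSMUSG00000031762) lies at chr8:94898819-94900207 and *Mt1* (ENSMUSG00000031765) at chr8:94905710-94906955, both on the plus strand, with 5503 bases between them. *Mtf1* (ENSMUSG00000028890) lies at chr4:124695897-124743593 on the plus strand, *Slc30a1* (ENSMUSG00000037434) at chr1:191638808-191645361 on the plus strand, and *Slc39a10* (ENSMUSG00000025986) at chr1:46845872-46964964 on the minus strand. Promoter windows from RefSeq (GRCm38.p6 table, each window found exactly once in GRCm39) run from 250 bases before the RefSeq start to 30 bases after it. That start lies 7 bases after the GENCODE gene start for *Mt1*, 85 for *Slc30a1* and 427 for *Mt2*, so the *Mt2* window lies within the gene coordinates given above, and part of each window is exonic in some GENCODE transcript. The metallothioneins and the zinc exporter are shown because they carry the core letters that MTF1 is known to bind. The *Mt1* and *Mt2* windows are shown up to the 30th annotated exonic base, and for *Slc30a1* the 30 bases around its core. Capitals mark every complete TGCACNC or TGCGCNC on either strand, and positions are of the leftmost letter, with the RefSeq start as 1.
Mt1 promoter, chr8:94905467-94905739, plus strand: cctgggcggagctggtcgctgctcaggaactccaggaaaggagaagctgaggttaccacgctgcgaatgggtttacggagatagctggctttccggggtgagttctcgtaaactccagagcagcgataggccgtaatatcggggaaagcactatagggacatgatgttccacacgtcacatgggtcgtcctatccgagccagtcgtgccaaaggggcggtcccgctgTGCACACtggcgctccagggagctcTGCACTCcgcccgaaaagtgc
Mt2 promoter, chr8:94898996-94899161, plus strand: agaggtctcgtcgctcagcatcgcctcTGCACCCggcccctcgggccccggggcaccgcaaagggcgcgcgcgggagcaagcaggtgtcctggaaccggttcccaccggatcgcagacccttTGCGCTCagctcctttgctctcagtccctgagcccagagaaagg
Slc30a1 core, chr1:191638839-191638868, plus strand: acgggggttccGAGTGCAaagcaaagtttt
The whole *Mt1* window held 3 such cores, at -23, 3 and 21, the *Mt2* window 4, at -223, -128, -50 and 5, and the *Slc30a1* window 1, at -43. None of these cores overlap each other. The *Mtf1* window and both *Slc39a10* windows held 0, which says only that these letters are not in those windows. Among 32851 promoters of the same length, 24.1% held at least 1 core, 6.37% at least 2, 1.73% at least 3 and 0.405% at least 4. The antioxidant response core TGACNNNGC was found once in the *Mt2* and once in the *Slc30a1* window, and in 11.5% of all promoters at least once.

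Between 17005079 and 24181167 counts fell on genes in each library (median 19439667.5). Levels are given as RPM, counts divided by the total of the library, after TMM scaling, a correction for library composition, as mean ± SD with n = 6. *Tug1* itself was lower in *Tug1* KD myotubes in all 3 conditions, with log2FC of -0.83 at Rest (FDR 0.000915), -0.57 at EPS 0h (FDR 0.0178) and -0.51 at EPS 3h (FDR 0.0414). All 8 myotube markers were present, and their summed level ranged from 10230 to 14842 RPM over all libraries, while the lymphoid marker *Ptprc* averaged 0.225 RPM. The summed level of 4 markers of proliferating myoblasts ranged from 92.5 to 158.5 RPM, that of 2 fibroblast markers from 85.2 to 219.5 RPM and that of 3 lymphoid, myeloid and endothelial markers from 1.56 to 5.81 RPM. The reserve myoblast markers *Pax7* and *Myf5* were both present and together ranged from 29.9 to 34.1 RPM in Rest control myotubes, from 49.4 to 62.3 RPM in EPS 0h control myotubes and from 24.3 to 32.0 RPM in EPS 3h control myotubes, and in *Tug1* KD myotubes from 24.2 to 32.1 RPM, 38.9 to 54.2 RPM and 20.1 to 34.7 RPM in the same order. These are bulk samples, in which fewer cells of a type and less RNA per cell cannot be told apart. The study describes triplicate wells from 2 experiments, and the labels do not say which replicate numbers share an experiment. Replicates 1 to 3 and 4 to 6 were treated as sets, and values within these sets are given where they differ.

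Of the 5 genes, the transcription factor and the importer rose with stimulation in both LNA groups, the exporter and *Mt1* passed no test for stimulation, and *Mt2* was hardly counted at all. The exporter was lower in *Tug1* KD myotubes at Rest and EPS 3h, and the importer at EPS 3h. *Mtf1*, *Slc39a10*, *Slc30a1* and *Mt1* passed the filter of at least 1 RPM in at least 12 libraries and *Mt2* did not, with 9 libraries at that level. Per kilobase of canonical transcript, the mean level over the 6 groups ran from 387.1 to 468.3 RPM per kb for *Mt1*, 4.79 to 10.2 for *Mtf1*, 4.79 to 6.40 for *Slc30a1*, 1.33 to 2.74 for *Slc39a10* and 0.488 to 1.74 for *Mt2*. *Mt1* was thus by far the most abundant per length, and by RPM its mean lay at the 96.4th percentile of the 13995 genes tested.

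**Figure D1:**
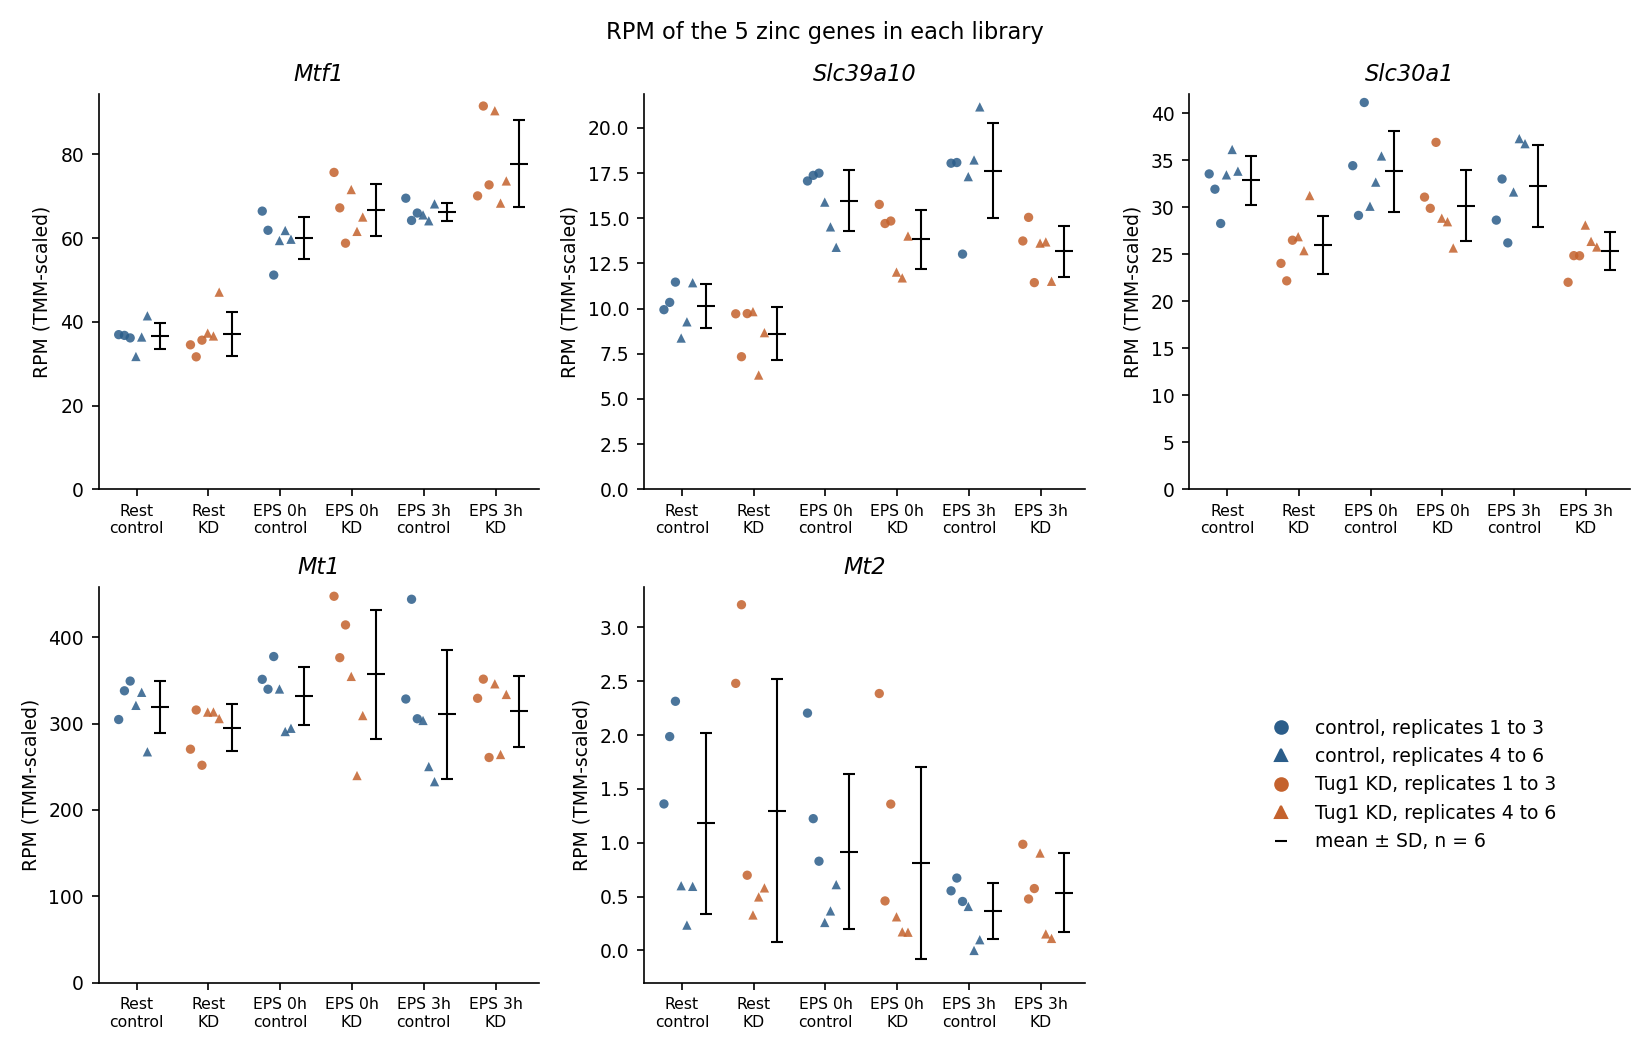
RPM of the 5 genes in each of the 36 libraries (y axis, TMM-scaled, 1 panel per gene with its own scale) by group (x axis), with circles for replicates 1 to 3, triangles for 4 to 6 and black bars for mean ± SD. *Mtf1* and *Slc39a10* are higher in every stimulated library than in every Rest library of the same LNA group, *Slc30a1* is lower in *Tug1* KD myotubes at Rest and EPS 3h, and *Mt2* stays at or under 3.21 RPM.

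*Mtf1*, the transcription factor that senses zinc, rose with stimulation, and its log2FC was the highest of the 4 tested genes in all 4 comparisons with Rest by point estimate. In control myotubes its lowest, median and highest level was 31.7, 36.6 and 41.4 RPM at Rest, 51.2, 60.8 and 66.4 RPM at EPS 0h, and 64.1, 65.8 and 69.5 RPM at EPS 3h. Every stimulated control library lay above every Rest control library. The means rose from 36.6 ± 3.08 RPM to 60.1 ± 5.03 RPM at EPS 0h, a log2FC of 0.72 (SE 0.0883, FDR 5.99e-08), and to 66.3 ± 2.18 RPM at EPS 3h, a log2FC of 0.86 (SE 0.0885, FDR 3.96e-10).

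*Mtf1* rose in *Tug1* KD myotubes too. Its lowest, median and highest level was 31.6, 36.1 and 47.1 RPM at Rest, 58.8, 66.1 and 75.7 RPM at EPS 0h, and 68.4, 73.2 and 91.6 RPM at EPS 3h. Again no stimulated library overlapped with Rest. The log2FC was 0.84 at EPS 0h (SE 0.0884, FDR 1.51e-09) and 1.07 at EPS 3h (SE 0.0887, FDR 1.97e-12), the latter a change to 2.09 times the Rest level (95% interval 1.85 to 2.37). Against EPS 0h, the EPS 3h level differed by a log2FC of 0.22 in *Tug1* KD (95% interval 0.05 to 0.40, FDR 0.0821) and 0.14 in control myotubes (95% interval -0.04 to 0.32, FDR 0.325). With the replicate number as a block, which the libraries of these *Tug1* KD groups allow, the former passed (FDR 0.0467), as it did without replicate 1 (FDR 0.0437).

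The LNA comparisons of *Mtf1* passed no threshold. At EPS 3h the level was 77.8 ± 10.4 RPM in *Tug1* KD against 66.3 ± 2.18 RPM in control myotubes, higher in 6 of 6 libraries of the same number, with a log2FC of 0.23 (95% interval 0.05 to 0.41, FDR 0.0840). In the fit with the replicate block this difference passed (FDR 0.0465). The log2FC was 0.15 at EPS 0h (95% interval -0.03 to 0.33, FDR 0.284) and 0.02 at Rest (95% interval -0.16 to 0.20, FDR 0.929). Neither interaction term, the test of whether stimulation changed *Mtf1* differently in the LNA groups, passed (log2 difference 0.13 at EPS 0h, 95% interval -0.12 to 0.38, and 0.21 at EPS 3h, 95% interval -0.04 to 0.46, FDR of both 1.00).

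*Slc39a10*, the plasma membrane importer, also rose with stimulation. Its lowest, median and highest level in control myotubes was 8.37, 10.1 and 11.5 RPM at Rest, 13.4, 16.5 and 17.5 RPM at EPS 0h, and 13.0, 18.1 and 21.2 RPM at EPS 3h. The stimulated libraries did not overlap with Rest at either time. From 10.1 ± 1.22 RPM the mean rose to 16.0 ± 1.69 RPM at EPS 0h (log2FC 0.65, SE 0.116, FDR 2.63e-05) and to 17.6 ± 2.63 RPM at EPS 3h (log2FC 0.80, SE 0.116, FDR 4.32e-07).

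In *Tug1* KD myotubes *Slc39a10* had a lowest, median and highest level of 6.32, 9.19 and 9.83 RPM at Rest, 11.7, 14.4 and 15.8 RPM at EPS 0h, and 11.4, 13.7 and 15.0 RPM at EPS 3h. Here too the groups were apart. The log2FC was 0.69 at EPS 0h (SE 0.117, FDR 1.11e-05) and 0.62 at EPS 3h (SE 0.117, FDR 3.56e-05). The level at EPS 3h did not differ detectably from EPS 0h in either LNA group (log2FC 0.15 in control myotubes, 95% interval -0.09 to 0.38, and -0.07 in *Tug1* KD, 95% interval -0.30 to 0.16).

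Between LNA groups *Slc39a10* was lower in *Tug1* KD myotubes at EPS 3h. The mean was 13.2 ± 1.42 RPM against 17.6 ± 2.63 RPM, lower in 6 of 6 libraries of the same number though the ranges overlapped, with a log2FC of -0.42 (SE 0.115, FDR 0.0123). The difference was -0.24 at Rest (95% interval -0.48 to -0.00017, FDR 0.234) and -0.21 at EPS 0h (95% interval -0.44 to 0.03, FDR 0.257). The call at EPS 3h was lost in a fit of the compared groups only (FDR 0.0543), in replicates 1 to 3 alone (log2FC -0.29, FDR 0.282) and without replicate 6 (FDR 0.0845), and held in replicates 4 to 6 alone (log2FC -0.55, FDR 0.0243). The interaction with stimulation did not pass (-0.18 at EPS 3h, 95% interval -0.52 to 0.15, and 0.03 at EPS 0h, 95% interval -0.30 to 0.36, FDR of both 1.00).

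Genes used as markers of other cells moved with the same comparisons. Against Rest, the fibroblast marker *Pdgfra* was lower at EPS 0h and EPS 3h in control (log2FC -0.86, FDR 1.38e-05, and -0.95, FDR 1.24e-06) and in *Tug1* KD myotubes (-1.09, FDR 3.13e-07, and -1.07, FDR 2.21e-07). The endothelial marker *Pecam1* was higher at EPS 3h (2.28, FDR 2.33e-06, and 2.93, FDR 1.10e-07), and the myoblast marker *Myf5* at EPS 0h (1.31, FDR 3.54e-06, and 1.41, FDR 9.49e-07), while at EPS 3h *Myf5* was at 0.33 (FDR 0.167) and 0.42 (FDR 0.0906) and *Pax7* lower (-0.62, FDR 0.000339, and -0.51, FDR 0.00273). Among the proliferation markers *Mki67* was higher (0.41 to 0.73) and *Ccnb1* lower (-0.56 to -0.37) in all 4 comparisons with Rest. *Cd68* was lower in control myotubes at both times (-0.44, FDR 0.0453, and -0.69, FDR 0.00137). Over all libraries *Pecam1* ranged from 0 to 2.75 RPM (mean 0.931) and *Cd68* from 1.03 to 5.44 RPM (mean 2.45). The cells are a clonal line, and these genes do not show that other cell types were present. Whether the share of any cell type changed, and its part in the results for *Mtf1* and *Slc39a10*, was not tested.

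The counts of members called were read against those of all genes. In each of the 4 comparisons of stimulated with Rest myotubes 2 of 4 tested members were called, both higher. Of all 13995 genes, 38.9% (EPS 0h) and 52.0% (EPS 3h) were called in control myotubes, and 45.6% and 52.1% in *Tug1* KD myotubes. The called-higher shares were 20.5%, 26.1%, 24.4% and 26.2% in the same order. Of the called genes 52.8%, 50.2%, 53.6% and 50.3% were higher, against 40.0%, 32.6%, 40.6% and 33.1% under scaling by library size alone. Libraries of the 2 groups did not overlap for 22.0%, 28.9%, 22.5% and 29.8% of genes, so these counts say nothing particular to the members.

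**Figure D2:**
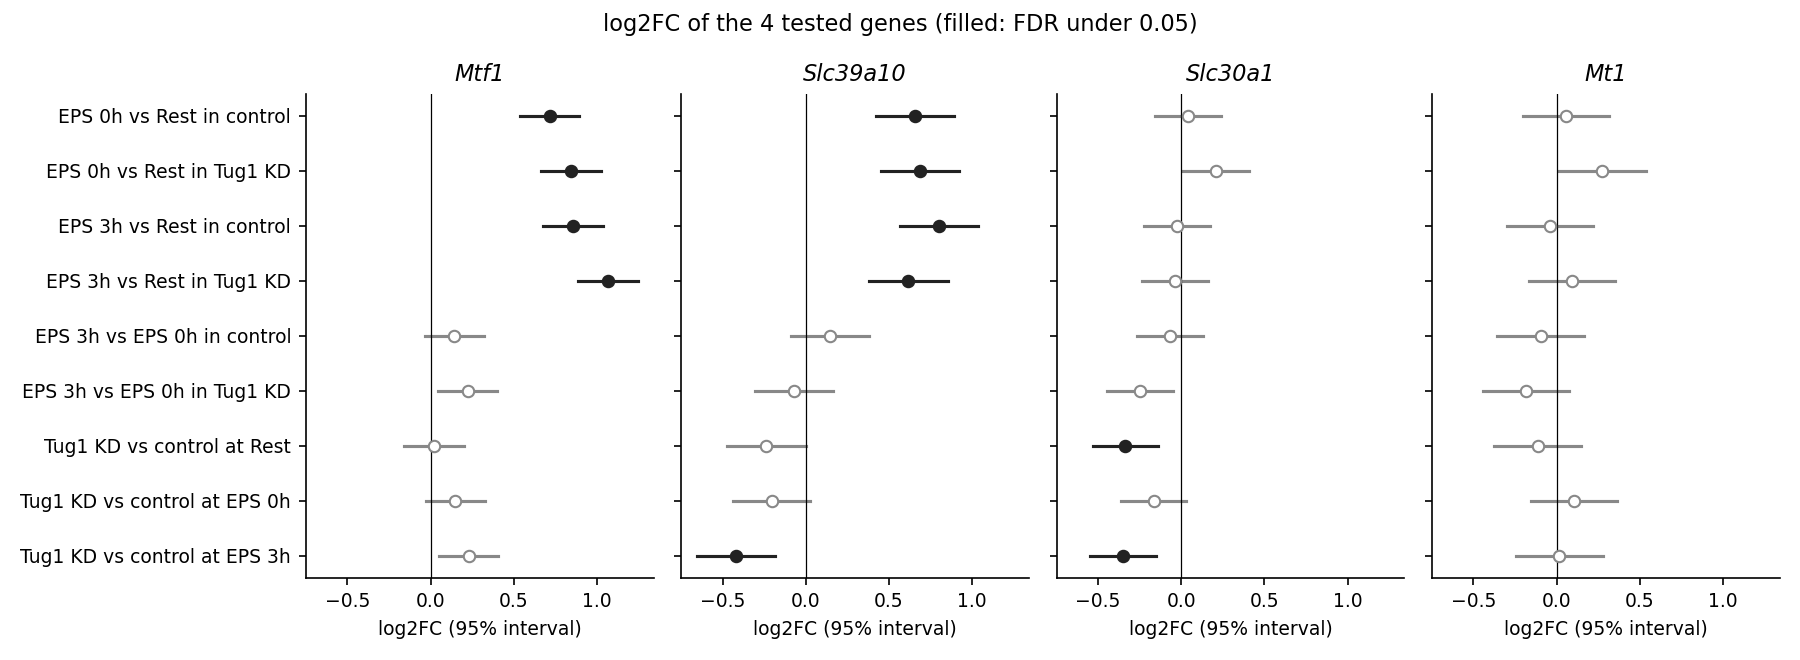
log2FC (x axis) with its 95% interval for the 4 tested genes in the 9 comparisons between 2 groups (y axis), with filled points for an FDR under 0.05. The 8 filled points right of 0 are the stimulation responses of *Mtf1* and *Slc39a10*, and the 3 left of 0 are the *Tug1* KD differences of *Slc30a1* and *Slc39a10*.

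*Slc30a1*, which exports zinc across the plasma membrane and is a known MTF1 target, had a lower level after *Tug1* KD. Its lowest, median and highest Rest level was 28.3, 33.5 and 36.1 RPM with the control LNA and 22.2, 25.9 and 31.2 RPM with *Tug1* KD. The EPS 3h values were 26.2, 32.3 and 37.3 RPM against 22.0, 25.3 and 28.1 RPM. In both conditions 6 of 6 *Tug1* KD libraries lay below the control mean, and the ranges overlapped. The mean fell by 0.34 on the log2 scale at Rest (32.9 ± 2.63 to 26.0 ± 3.08 RPM, SE 0.0974, FDR 0.0204) and by 0.35 at EPS 3h (32.2 ± 4.39 to 25.3 ± 2.02 RPM, SE 0.0979, FDR 0.0146).

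At EPS 0h control myotubes had 33.8 ± 4.33 RPM of *Slc30a1* against 30.1 ± 3.77 RPM with *Tug1* KD, lower in 5 of 6 same-numbered libraries, with a log2FC of -0.17 (95% interval -0.36 to 0.03, FDR 0.283). Whether the difference itself changed with stimulation was tested by the interactions, which did not pass (0.17 at EPS 0h, 95% interval -0.11 to 0.45, and -0.01 at EPS 3h, 95% interval -0.29 to 0.27). Both calls were lost when some replicates were left out 1 at a time, though the direction held. Over the 17 alternative fits the log2FC ran from -0.38 to -0.30 at Rest and from -0.40 to -0.29 at EPS 3h. At Rest the call was lost without replicate 1, 2, 4 or 5 (highest FDR 0.120), and at EPS 3h without replicate 2 or 5 (highest FDR 0.0875). Such fits also called fewer of all genes, 955 to 1177 at Rest (1401 in the main fit) and 990 to 1403 at EPS 3h (1608). Replicates 1 to 3 alone gave log2FC of -0.37 (FDR 0.113) and -0.29 (FDR 0.220), and replicates 4 to 6 alone -0.31 (FDR 0.0416) and -0.40 (FDR 0.0154), so the direction was shared by both sets. Without a filter on low counts both were lost (FDR 0.198 and 0.0601), as was the call at EPS 3h in the compared groups only (FDR 0.0624).

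Some genes used as markers of other cells also differed between the LNA groups. *Pdgfra* was lower in *Tug1* KD at Rest, EPS 0h and EPS 3h (log2FC -0.57, FDR 0.00632, -0.80, FDR 0.000205, and -0.69, FDR 0.00162), the myeloid marker *Cd68* at Rest (-1.02, FDR 0.000116) and EPS 3h (-0.72, FDR 0.00901), and *Ccnb1* at EPS 3h (-0.39, FDR 0.0406). The myotube marker *Ryr1* was higher at EPS 0h (0.89, FDR 0.00166) and EPS 3h (0.79, FDR 0.00648). None of the other myotube markers was called at either time. Their log2FC ran from -0.50 (*Ckm*) to 0.24 (*Actn2*) at EPS 0h and from -0.37 (*Ckm*) to 0.18 (*Actn2*) at EPS 3h. The summed level of the 3 lymphoid, myeloid and endothelial markers was 3.25 to 5.78 RPM in control and 1.56 to 2.54 RPM in *Tug1* KD at Rest, and 3.97 to 5.81 RPM against 3.22 to 4.72 RPM at EPS 3h. That of the 2 fibroblast markers overlapped, at 126.2 to 166.7 RPM against 103.8 to 190.3 RPM and 109.1 to 219.5 RPM against 85.2 to 176.5 RPM. Of these 2, *Dcn* was called in no LNA comparison (log2FC 0.0083 at Rest, -0.09 at EPS 0h and -0.17 at EPS 3h). Whether the share of any cell type differed in this clonal line, and its part in the lower *Slc30a1* and *Slc39a10*, was not tested.

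No comparison of *Slc30a1* between stimulation conditions passed. In control myotubes the log2FC against Rest was 0.04 at EPS 0h (95% interval -0.16 to 0.24) and -0.03 at EPS 3h (95% interval -0.22 to 0.17). In *Tug1* KD myotubes it was 0.21 at EPS 0h (95% interval 0.01 to 0.41, FDR 0.0756) and -0.04 at EPS 3h (95% interval -0.24 to 0.16), and the step from EPS 0h to EPS 3h was -0.25 (95% interval -0.45 to -0.05, FDR 0.0807). That step passed under library size scaling (-0.33, FDR 0.0165), with the replicate set (1 to 3 or 4 to 6) as a block (-0.25, FDR 0.0477) and in replicates 1 to 3 alone (-0.44, FDR 0.0426), and was -0.048 in replicates 4 to 6 alone (FDR 0.832). The EPS 0h value in *Tug1* KD myotubes came from replicates 1 to 3 (0.44, FDR 0.00943), while replicates 4 to 6 gave -0.01 (FDR 0.959), and without replicate 6 it passed (FDR 0.0224).

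Across the *Tug1* comparisons, 1 of 4 tested members was called at Rest, 0 at EPS 0h and 2 at EPS 3h, all lower in *Tug1* KD. For EPS 3h against EPS 0h 0 of 4 were called in either LNA group (16.6% of all genes in control and 15.7% in *Tug1* KD myotubes). At an unadjusted p under 0.05 it was 0 in control and 2 in *Tug1* KD myotubes, beside 3764 and 3767 of all 13995 genes. In the *Tug1* comparisons the shares of all genes called were 10.0%, 14.3% and 11.5%, and those called lower 4.47%, 6.07% and 5.11%. At EPS 0h 57.6% of the called genes were higher in *Tug1* KD, against 46.9% under library size scaling and 44.1% under upper quartile factors. The groups overlapped for all 4, beside 8.07%, 7.94% and 4.62% of genes whose groups did not. At an unadjusted p under 0.05, 2, 0 and 3 members passed, beside 2984, 3737 and 3299 of all 13995 genes. No member passed either interaction in edgeR (0 of 4), beside 0.0% of all genes at EPS 0h and 0.00715% at EPS 3h (1 gene). DESeq2 and limma-voom also gave 0 and 1 gene. With an unadjusted p under 0.05, 0 members passed either interaction, beside 324 and 430 of all 13995 genes.

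*Mt1* was abundant in every group and passed no comparison. Its lowest, median and highest level was 267.3, 328.6 and 349.1 RPM in Rest control myotubes, 290.7, 339.8 and 377.5 RPM in EPS 0h control myotubes, and 232.7, 304.5 and 443.8 RPM in EPS 3h control myotubes. In *Tug1* KD myotubes the values were 251.7, 309.4 and 315.6 RPM at Rest, 239.8, 365.3 and 447.2 RPM at EPS 0h, and 260.7, 331.4 and 351.3 RPM at EPS 3h. All groups overlapped. The counts behind these levels ran from 4535 to 8227 per library, so counting error was small beside the spread between libraries.

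The group means of *Mt1* lay between 295.0 ± 27.2 RPM (Rest *Tug1* KD) and 356.8 ± 74.6 RPM (EPS 0h *Tug1* KD), and that step had the smallest FDR of its comparisons (log2FC 0.27, 95% interval 0.01 to 0.53, FDR 0.0778). It was split by replicate set, with 0.58 in replicates 1 to 3 (FDR 0.00255) and -0.05 in replicates 4 to 6 (FDR 0.851), and passed without replicate 5 (FDR 0.0170). In control myotubes the log2FC against Rest was 0.06 at EPS 0h (95% interval -0.20 to 0.32, FDR 0.752) and -0.04 at EPS 3h (95% interval -0.30 to 0.22, FDR 0.821). For *Tug1* KD against control it was -0.11 at Rest (95% interval -0.37 to 0.15), 0.10 at EPS 0h (95% interval -0.16 to 0.36) and 0.02 at EPS 3h (95% interval -0.24 to 0.28). Scaling by library size alone, which moves the median of all genes by -0.17 at EPS 3h in control and by -0.16 in *Tug1* KD myotubes, turned the sign of *Mt1* at EPS 0h in control (-0.02) and at EPS 3h in *Tug1* KD myotubes (-0.07), and that of *Slc30a1* at EPS 0h in control myotubes (-0.03).

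*Mt2* had between 0 and 63 counts per library, and 3 counts correspond to 0.127 to 0.183 RPM. Its group means were 1.18 ± 0.841 RPM in Rest control, 1.30 ± 1.23 RPM in Rest *Tug1* KD, 0.916 ± 0.719 RPM in EPS 0h control, 0.810 ± 0.891 RPM in EPS 0h *Tug1* KD, 0.365 ± 0.262 RPM in EPS 3h control and 0.535 ± 0.366 RPM in EPS 3h *Tug1* KD myotubes. In EPS 0h *Tug1* KD myotubes the SD exceeded the mean, and in the other groups it was smaller. The counts parted by replicate set, with 8 to 63 counts (median 21.5) in replicates 1 to 3 and 0 to 15 (median 6.5) in replicates 4 to 6, a mean level 3.78 times as high in the former. For *Mt1* that quotient was 1.14, and for the other 3 genes it lay between 0.954 and 1.06.

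**Figure D3:**
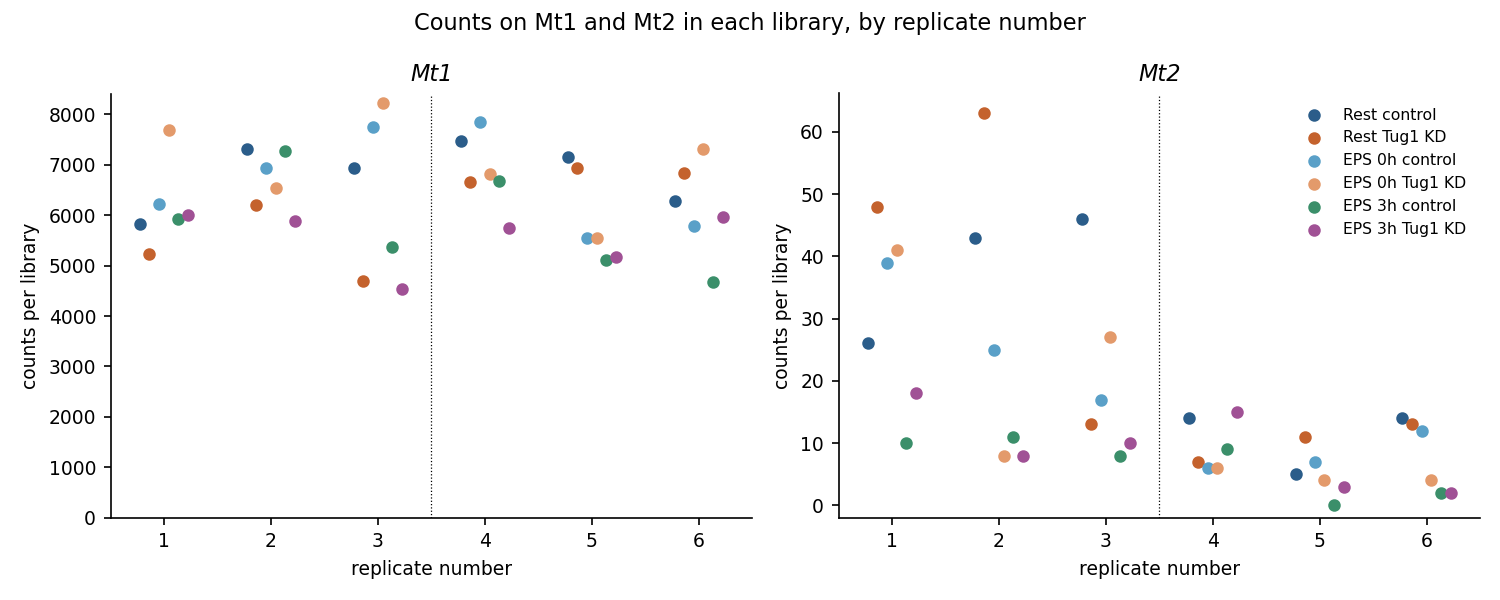
Counts per library (y axis) on *Mt1* (left) and *Mt2* (right) by replicate number (x axis), coloured by group, with a dotted line between replicates 1 to 3 and 4 to 6. *Mt1* has at least 4535 counts in every library, while *Mt2* has at most 63 in replicates 1 to 3 and at most 15 in replicates 4 to 6.

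In a fit without the filter, where *Mt2* could be tested, no comparison passed. The log2FC of EPS 3h against Rest was -1.80 in control myotubes (SE 0.750, FDR 0.0722) and -1.42 in *Tug1* KD myotubes (SE 0.715, FDR 0.132). The ratio of *Mt1* to *Mt2* counts within a library, which needs no scaling, averaged 8.42 on the log2 scale in Rest control myotubes and 10.2 in EPS 3h control myotubes (0.5 added to each count). That difference of 1.81 had p = 0.0455 in a two-sided exact permutation test over 924 splits and an adjusted p of 0.370 over 9 comparisons, and the lowest p this design allows is 0.00216. The ratio was higher at EPS 3h in 6 of 6 same-numbered pairs, which deviate together in this comparison, and an exact sign-flip test over the pairs gave p = 0.0312, the lowest it allows, with an adjusted p of 0.211. No other ratio comparison had a lower p in either test. The EPS 3h control group holds the library with 0 *Mt2* counts (replicate 5), whose log2 ratio of 13.3 depends on the 0.5 added. The median log2 ratio was 8.27 in Rest control and 9.38 in EPS 3h control myotubes.

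The libraries are stranded, but the counting mode and strand setting are not given in the sources used here. Of the 748 bases of the canonical *Mt2* transcript, 77.7% lie opposite exons of the lncRNA *Gm45774*, which had 2 to 12 counts per library. Of 116 protein-coding genes with over 80% of these bases overlapped on the opposite strand only, 56.0% passed the filter (median 1.95 RPM). The share was 51.2% of 14529 without exonic overlap (1.06 RPM) and 8.43% of 332 with over 80% on the same strand (0 RPM). *Mt1* and *Mt2* transcripts share a longest exact run of 20 bases. Runs of 50 bases were shared with *Mt2* by 1 other gene, *Gm61019*, and with *Mt1* by 0. The genes whose RPM followed *Mt2* most closely were *S100a4* (Pearson r = 0.886 over 36 libraries), *Mrpl33* (0.853) and *Cox5b-ps* (0.825), of which *S100a4* and *Mrpl33* share 60.0% and 24.2% of their canonical bases with another gene on the same strand. The part of read assignment in the *Mt2* count was not tested.

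The remaining members overlap other genes little. *Mtf1* shares 10.0% of its canonical bases with *1110065P20Rik*, *Slc30a1* 8.86% with *1700034H15Rik* and *Slc39a10* 4.93% with *Dnah7c*, each on the opposite strand. *Mt1* shares no exonic base with another annotated gene.

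Ordered by mean level, *Mtf1* ran from EPS 3h *Tug1* KD through EPS 0h *Tug1* KD, EPS 3h control and EPS 0h control to Rest *Tug1* KD and Rest control. Only the step between EPS 0h control and Rest *Tug1* KD separated neighbours without overlap (22.9 RPM). For *Slc39a10* the order was EPS 3h control, EPS 0h control, EPS 0h *Tug1* KD, EPS 3h *Tug1* KD, Rest control and Rest *Tug1* KD, with overlap between all neighbours. *Slc30a1* ran from EPS 0h, Rest and EPS 3h control to EPS 0h, Rest and EPS 3h *Tug1* KD, so the 3 control groups came first, though again all neighbours overlapped. Neighbours in the orders of *Mt1* and *Mt2* differed by less than the larger of their SDs throughout.

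Across the 36 libraries *Mtf1* and *Slc39a10* had a Pearson r of 0.729 on the log2 RPM scale, and *Mt1* and *Mt2* 0.398. The libraries share their groups and replicate sets, so these are descriptions. The genes most like *Mtf1* were *Cflar* (0.971), an inhibitor of caspase-8 activation, *Mertk* (0.966), a receptor tyrosine kinase, and *Kctd18* (0.965). Those most like *Slc39a10* were *Slc30a4* (0.926), *Rabep1* (0.925) and *Patl1* (0.915), and those most like *Slc30a1* were *Tram1* (0.826), *Kbtbd2* (0.803) and *C9orf72* (0.802). For *Mt1* the highest values were lower, at 0.704 for *Gm49890*, 0.674 for *Septin5* and 0.672 for *Phf10*.

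The other zinc transporters place the exporter and the importer among their families. Of 10 *Slc30a* genes 6 passed the filter and of 14 *Slc39a* genes 9 did. By mean RPM per kb over all libraries the leading transporters were *Slc39a1* (42.1), *Slc39a13* (33.3) and *Slc30a4* (31.8), against 5.69 for *Slc30a1* and 2.05 for *Slc39a10*. *Slc39a7*, an importer of the endoplasmic reticulum, had only 0.822 RPM and shares 86.0% of its canonical bases with *Gm20427* on the same strand. The metallothioneins *Mt3* and *Mt4* had at most 9 and 12 counts per library.

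Among exporters, 2 of 6 were higher at EPS 0h and 3 of 6 at EPS 3h, with 0 lower, and both LNA groups gave these counts, beside all-gene shares called higher of 20.5% (control) and 24.4% (*Tug1* KD) at the earlier and 26.1% and 26.2% at the later time. *Slc30a5*, which loads zinc into the secretory pathway, rose from 50.3 to 112 RPM in control myotubes at EPS 3h (log2FC 1.15, FDR 3.21e-10) and by a log2FC of 0.94 in *Tug1* KD (FDR 2.38e-08). *Slc30a4*, a vesicular transporter, rose by 0.93 (FDR 3.80e-08) and 0.76 (FDR 1.59e-06), and *Slc30a9*, a mitochondrial zinc transporter, by 0.41 in both (FDR 0.000195 and 0.000206). The median log2FC of the 6 was 0.30 and 0.25, beside -0.02 and -0.04 for all genes.

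Importers moved both ways. At EPS 3h 2 of 9 were higher (*Slc39a10* and *Slc39a9*) and 5 of 9 lower in both LNA groups, with a median log2FC of -0.41 and -0.40. The lower ones were *Slc39a1*, *Slc39a3*, *Slc39a11*, *Slc39a13* and *Slc39a14*, with log2FC in control myotubes of -0.50 (FDR 0.00227), -0.68 (FDR 0.00147), -0.41 (FDR 0.0411), -0.44 (FDR 0.0209) and -0.44 (FDR 0.00957). *Slc39a10* thus moved with 1 other importer and against 5. At EPS 0h 1 was higher and 1 lower in control, and 2 higher and 3 lower in *Tug1* KD myotubes. Under scaling by library size alone the counts at EPS 3h were 1 higher and 5 lower in control and 1 higher and 6 lower in *Tug1* KD myotubes, and 1 of 6 exporters was then lower in each LNA group. Of all genes 25.9% were called lower at EPS 3h in each LNA group, and 18.4% (control) and 21.2% (*Tug1* KD) at EPS 0h. None of the listed genes called here changed its sign under that scaling.

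Between LNA groups, *Slc39a8*, which imports zinc and manganese, was lower in *Tug1* KD in all 3 conditions, from 3.76 to 2.30 RPM at Rest (log2FC -0.71, FDR 0.00563), by -0.75 at EPS 0h (FDR 0.00295) and by -0.61 at EPS 3h (FDR 0.0187). At EPS 3h 3 of 9 importers were lower (*Slc39a6* at -0.35, FDR 0.0363, *Slc39a8* and *Slc39a10*) and 0 higher. At EPS 0h *Slc39a9*, a transporter of the secretory pathway, was higher (log2FC 0.28, FDR 0.0406), as were 8.25% of all genes, a call lost under library size scaling and upper quartile factors. At EPS 3h 2 of 6 exporters were lower, *Slc30a1* and *Slc30a4* (-0.44, FDR 0.0105). Of all genes 5.11% were called lower there. The medians were -0.09 for importers and -0.19 for exporters, beside -0.01 for all genes. In replicates 1 to 3 alone 0 importers and 0 exporters were lower at EPS 3h, and in replicates 4 to 6 alone 1 importer and 3 exporters were.

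**Figure D4:**
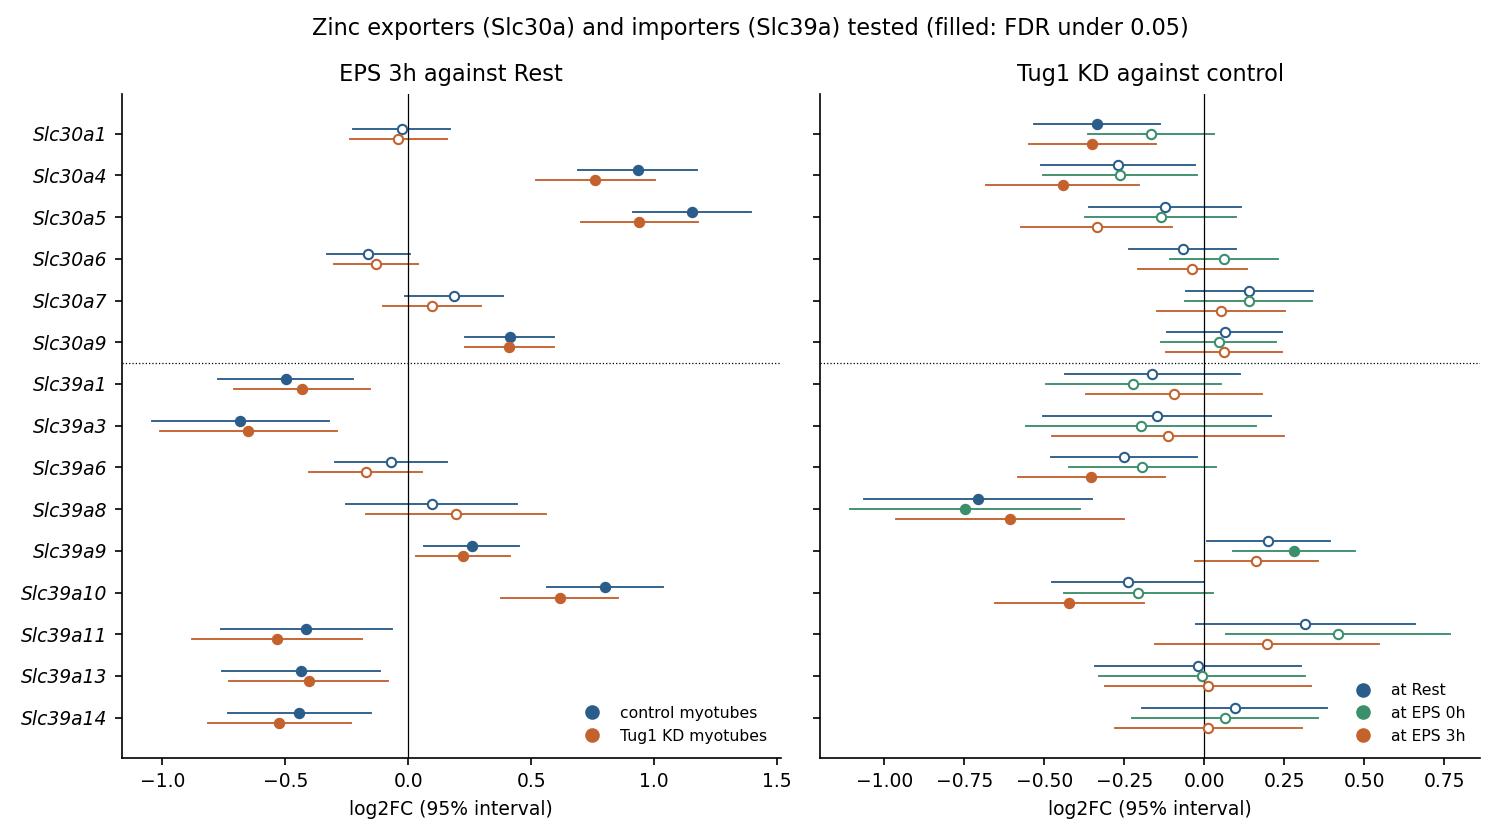
log2FC (x axis) with 95% interval of the 6 *Slc30a* exporters and 9 *Slc39a* importers tested (y axis), left for EPS 3h against Rest in each LNA group and right for *Tug1* KD against control at each condition, with filled points for an FDR under 0.05. Exporters called in the left panel lie right of 0, importers lie on both sides, and in the right panel all called points but *Slc39a9* at EPS 0h lie left of 0.

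Other inducers of metallothioneins were followed by short lists. Of 5 further genes linked to MTF1, *Pgf*, an angiogenic growth factor, was higher (34.7 to 91.8 RPM in control myotubes at EPS 0h, log2FC 1.40, FDR 2.45e-09) and *Gclc*, the catalytic subunit of glutathione synthesis, lower (208 to 133 RPM, log2FC -0.64, FDR 0.000386), the same count of 1 higher and 1 lower in all 4 comparisons with Rest. Of 5 glucocorticoid-inducible genes tested, 0 were higher at EPS 0h and 1 (control) or 3 (*Tug1* KD) lower, among them *Fkbp5*, a chaperone of the glucocorticoid receptor (log2FC -0.38, FDR 0.00308, and -0.33, FDR 0.00943). Library size scaling and upper quartile factors each gave 2 lower in control at that time. At EPS 3h 1 of these genes was higher and 2 were lower in each LNA group. Of 6 oxidative-stress and heavy-metal genes, 4 were lower at EPS 0h in each LNA group and 0 higher, led by *Nqo1*, a quinone reductase, which fell from 52.2 RPM at Rest in control myotubes (log2FC -2.12, FDR 3.16e-11). The others were *Srxn1*, *Txnrd1* and *Gclm*, and at EPS 3h *Txnrd1* was the 1 that was higher, in both LNA groups, a call lost in both under library size scaling. Of all genes, 20.5% (control) and 24.4% (*Tug1* KD) were called higher at EPS 0h, and 18.4% and 21.2% lower. At EPS 3h 26.1% and 26.2% were called higher, and 25.9% lower in each LNA group. These lists are short, so their counts are descriptions. *Mt1* itself had a log2FC of 0.06 at EPS 0h in control myotubes.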

How the data were processed

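RNA-seq counts from 36 libraries of C2C12 myotubes were used. Per the study's methods, the authors made stranded poly(A) libraries, checked and trimmed reads with FastQC (0.11.7) and fastp (0.14.1), and aligned them with STAR (2.5) to the Ensembl release of GRCm39. They deposited raw counts per gene. The counting mode is not given in the sources used here. Genes without a symbol (1492) held 0.0327% of counts. No pair of libraries within a group agreed within sampling noise.

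The members and lists were chosen with earlier results of these data known, and the overlap, neighbour and list-by-scaling checks were added after seeing the data. The 13995 genes that reached 1 RPM in 12 or more libraries were fitted with edgeR (4.0.16, R 4.3.3) by its robust quasi-likelihood test on TMM-scaled counts, in 1 model of the 6 groups, for 11 comparisons. FDR is the Benjamini-Hochberg value over all genes tested, called under 0.05. SE is the size of the log2FC over the root of F, and intervals are 95%. A call rate on simulated data was checked first. The *Mt1* to *Mt2* ratio was to be taken of plain counts, but 1 library had 0 *Mt2* counts, so 0.5 was added to both. Alternatives (17) comprised DESeq2 (1.42.0), limma-voom (limma 3.58.1), other scalings and filters, blocks, the compared groups only, replicate sets and each replicate left out. Python (3.11.15) with scipy (1.17.1) was used for the remainder.

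All 5 members were named in every comparison. For the transporter lists, counts by direction against Rest and for *Tug1* KD at EPS 3h were given, with medians at EPS 3h. For the remaining lists, counts by direction against Rest were given, without medians or the *Tug1* comparisons. Up to 4 genes of lowest FDR were named, with exceptions chosen after their values were seen. Likeness was given for the 3 genes with the highest Pearson r of log2(RPM + 0.5) over 36 libraries. Marker lists covered myotubes, proliferating and reserve myoblasts, fibroblasts, and lymphoid, myeloid and endothelial cells.

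Same-numbered libraries deviated together in all 6 pairs (lowest r over 0.1) in 6 of 9 comparisons between groups, with r from 0.570 to 0.714 for *Tug1* KD against control at EPS 0h and 0.207 to 0.716 at EPS 3h. They did not at Rest (lowest r -0.08), for EPS 3h against EPS 0h in control (-0.03) or for EPS 3h against Rest in *Tug1* KD myotubes (0.08). The study does not say which wells share an experiment, so p-values measure the spread between these libraries, which is in part technical. Depth (17005079 to 24181167 counts per library) limits precision most for *Mt2* and for genes of few counts, such as *Slc39a10* (140 to 425 per library).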

Additional observations from a re-analysis of the deposited data

Results flagged for a closer look

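Of the 36 group levels checked, *Mtf1* in Rest *Tug1* KD myotubes held 1 library far from the others of its group. Replicate 6 had 47.1 RPM against 37.3 RPM for the nearest library, a gap of 0.634 of the range of the group, which is above the 95% critical value of Dixon's test for 6 libraries. Chance marks about 1 in 20 groups in this way, and the cause was not tested.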

How the results depend on the processing

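The 2 stimulation calls, *Mtf1* and *Slc39a10*, held against Rest in both LNA groups in all 17 alternatives. For *Tug1* KD at Rest, 0 members were called with no filter and in replicates 1 to 3 alone, and 0 to 1 with 1 replicate left out. At EPS 3h 1 was called with no filter, 0 in the compared groups only and in replicates 1 to 3 alone, and 1 to 2 with 1 replicate left out. For EPS 0h against Rest in *Tug1* KD myotubes replicates 1 to 3 alone gave 4, beside 7584 of all 13995 genes (6388 in the main fit). For EPS 3h against EPS 0h in *Tug1* KD myotubes, 1 was called under DESeq2 and the replicate block (*Mtf1*). Library size only, the block of replicate sets and replicates 1 to 3 alone also gave 1 (*Slc30a1*), and leaving out 1 replicate gave 0 to 1. Apart from this comparison and *Mtf1* in *Tug1* KD at EPS 3h, the replicate block changed no member's call. The cause was not tested, beyond the fewer libraries in the replicate sets and the more genes tested with no filter. *Mt2* could be tested with no filter alone.

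Signs turned, as log2 values, only in comparisons that the test of all 36 libraries did not call, though *Mt1* and *Slc30a1* at EPS 0h in *Tug1* KD passed in replicates 1 to 3 alone. In replicates 4 to 6 alone, *Mt1* gave 0.012 and -0.034 for *Tug1* KD at Rest and EPS 0h, -0.045 and 0.063 for EPS 0h against Rest and EPS 3h against EPS 0h in *Tug1* KD, and -0.047 for the EPS 0h interaction. *Slc30a1* gave -0.075, 0.031 and 0.11 for EPS 0h and EPS 3h against Rest and EPS 3h against EPS 0h in control, and -0.0099 for EPS 0h in *Tug1* KD. *Slc39a10* gave 0.040 (EPS 3h against EPS 0h, *Tug1* KD), *Mtf1* -0.013 (EPS 0h interaction) and the *Mt1* to *Mt2* ratio -0.23 (EPS 3h against EPS 0h, *Tug1* KD). In replicates 1 to 3 alone, *Mtf1* gave -0.11 (*Tug1* KD, Rest), *Mt1* -0.19 (*Tug1* KD, EPS 3h), 0.14 and 0.033 (EPS 3h against Rest and EPS 0h, control), *Slc39a10* -0.059 (EPS 3h against EPS 0h, control) and *Slc30a1* 0.076 (EPS 3h interaction). *Mt1* for *Tug1* KD at EPS 3h was -0.0019 under upper quartile factors and -0.0096 with no filter, which also gave -0.058 for *Mt1* at EPS 3h in *Tug1* KD and -0.0095 for the EPS 0h interaction of *Slc39a10*. Library size only gave -0.018 and -0.032 for *Mt1* and *Slc30a1* at EPS 0h in control and -0.074 for *Mt1* at EPS 3h in *Tug1* KD, and the compared groups only 0.0064 for *Slc30a1* at EPS 3h in control. With 1 replicate left out, *Tug1* KD values ranged from -0.017 to 0.066 for *Mtf1* at Rest and -0.074 to 0.11 for *Mt1* at EPS 3h. In control, *Slc30a1* ranged from -0.062 to 0.080 (EPS 0h), -0.043 to 0.011 (EPS 3h) and -0.12 to 0.049 (EPS 3h against EPS 0h), and *Mt1* from -0.15 to 0.031 (EPS 3h). In *Tug1* KD, *Slc30a1* at EPS 3h ranged from -0.077 to 0.0069. The interactions ranged from -0.095 to 0.16 for *Slc39a10* (EPS 0h) and -0.047 to 0.039 for *Slc30a1* (EPS 3h), and the ratio from -0.38 to 0.083 (*Tug1* KD, Rest) and -0.062 to 0.40 (EPS 3h against EPS 0h, *Tug1* KD). Of all values under the alternatives, 44 turned sign. The mean *Mtf1* level at EPS 3h in control myotubes was 62.7 RPM under library size only.

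Genes called of all tested moved by over 1.5 times as follows, with the main count second. With no filter they were 1295 and 2005 (*Tug1* KD, EPS 0h), 925 and 1608 (EPS 3h), 11468 and 7277 (EPS 3h against Rest, control), 12730 and 7293 (same, *Tug1* KD) and 3854 and 2200 (EPS 3h against EPS 0h, *Tug1* KD), which a stricter filter took to 1336. With the replicate block, for *Tug1* KD, they were 2410 and 1401 (Rest), 3406 and 2005 (EPS 0h) and 2878 and 1608 (EPS 3h), for EPS 3h against EPS 0h 3531 and 2317 (control) and 3366 and 2200 (*Tug1* KD), and for the interactions 1 and 0 and 8 and 1. The block of replicate sets gave 2232, 3179 and 2611 for *Tug1* KD and 1 for the EPS 0h interaction, and a stricter filter 0 for that at EPS 3h. The compared groups only gave 831 for *Tug1* KD at EPS 3h. Replicates 1 to 3 alone gave 866, 940 and 852 for *Tug1* KD and 1290 for EPS 3h against EPS 0h in *Tug1* KD, and replicates 4 to 6 alone 2256 for *Tug1* KD at Rest and 3980 against 6388 for EPS 0h in *Tug1* KD. With 1 replicate left out, *Tug1* KD at EPS 3h gave 1015, 990 and 1063 (without replicate 2, 4 or 5), at EPS 0h 1284 (without 4), EPS 3h against EPS 0h in *Tug1* KD 1439 (without 4) and the EPS 3h interaction 0 (without 2, 3 or 4). For EPS 3h against EPS 0h, library size scaling moved the share of calls that were higher from 58.4% to 37.0% in control and from 54.6% to 37.1% in *Tug1* KD myotubes.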
